A study of Rattus norvegicus and Sus scrofa and Bos taurus with 188 samples.

Results

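The extracellular matrix genes described here are the collagens, laminins, other adhesive matrix proteins, integrins, matrix proteases with their inhibitors, and lysyl oxidases of pig morulae. Members were found by a pattern of gene symbols that uses no measured value, though the pattern was drawn up with earlier results of these data known. The pattern matched 128 of the 15877 gene names of the table, and a gene's level is that of its highest transcript row. Of these, 124 fall into 19 families of matrix biology. The other 4 only share the letters of a family: ITGB1BP1 and ITGB1BP2 encode proteins that bind an integrin tail, ITGBL1 encodes an integrin-like protein, and COL4A3BP encodes a ceramide carrier.

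The series profiles histone marks, DNA methylation and RNA in gametes and early embryos of several mammals, and its labels give 188 samples here. The table used holds RNA of a single group, pig embryos at the morula stage marked PG, which the labels of sister samples write out as parthenogenetically activated. Such embryos start from an egg activated without sperm and carry a maternal genome only. The authors merged the 4 libraries of the group in 1 column of FPKM (fragments per kilobase of transcript, scaled to the size of the library), so no value has a replicate spread and no test between samples could be run. Breed, culture conditions and the number of embryos in a library are not given in the sources used here, and no fertilised embryo or other stage was analysed. Fewer cells of a type and less RNA per cell cannot be told apart in such bulk samples.

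The matrix outside cells is built from secreted proteins. Collagen IV, laminins, nidogens and perlecan form the thin sheets called basement membranes, and fibrillar collagens form the fibres of connective tissue. Cells hold on to matrix through integrins, membrane receptors made of an alpha and a beta subunit whose pairing sets the ligand. Matrix metalloproteinases (MMP) and ADAMTS proteases cut the matrix, and lysyl oxidases cross-link collagen and elastin. TIMP proteins block MMPs, and TIMP3 also blocks ADAMTS proteases. In mammalian embryos laminins and collagen IV are best known from the basement membranes laid down as the outer layer and the inner cell mass take shape around the blastocyst stage.

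Marker genes of the labelled stage and of other cell types were looked up. No other stage was analysed, so the morula markers cannot tell this stage from a neighbouring one. All 8 morula markers stood at 1 FPKM or more, where 48.8% of all gene names did. TFAP2C at 194 FPKM, KLF17 at 85.9 FPKM and TEAD4 at 49.4 FPKM were highest, and the 8 genes summed to 469 FPKM over their rows. Of 10 cumulus and granulosa cell markers, the cells that surround an egg, 0 reached 1 FPKM, the highest being CYP19A1 at 0.835 FPKM, STAR at 0.300 FPKM and INHBA at 0.0275 FPKM. With all rows summed CYP19A1 alone came to 1.06 FPKM, and these 10 genes came to 1.42 FPKM together. FSHR, FOXL2, INHA and TNFAIP6 were listed at 0, and the listed markers HAS2 and LHCGR were not analysed here. Of 10 fibroblast and stromal markers 1 reached 1 FPKM, THY1 at 1.83 FPKM, followed by PDGFRA at 0.669 FPKM and DCN at 0.597 FPKM; 3 of these markers, COL1A1, COL1A2 and COL3A1, are also members. The stromal rows summed to 3.29 FPKM and the blood rows to 5.50 FPKM. Of 7 blood and leukocyte markers 2 did, CD14 at 2.38 FPKM and CD68 at 1.32 FPKM, while CD3E stood at 0.985 FPKM and the pan-leukocyte gene PTPRC at 0.0269 FPKM. The part of such cells in the low levels below was not tested.

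Most matrix genes lay below the median gene of these embryos: 106 of the 128 did. Of the 128 members 20 stood at 1 FPKM or more (15.6%), while 48.8% of all gene names did. A further 49 members lay from 0.1 to under 1 FPKM, 41 lay above 0 and under 0.1 FPKM, and 18 were listed at 0. The median member stood at 0.130 FPKM and the median gene of the table at 0.916 FPKM. Only 5 members (3.91%) reached 10 FPKM, against 20.2% of all genes, and ITGB1BP1 and COL4A3BP among them match by name only. Summed over all their rows, the 128 members took 0.0723% of the FPKM total of the table, and the 124 in a family 0.0539%.

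**Figure D1:**
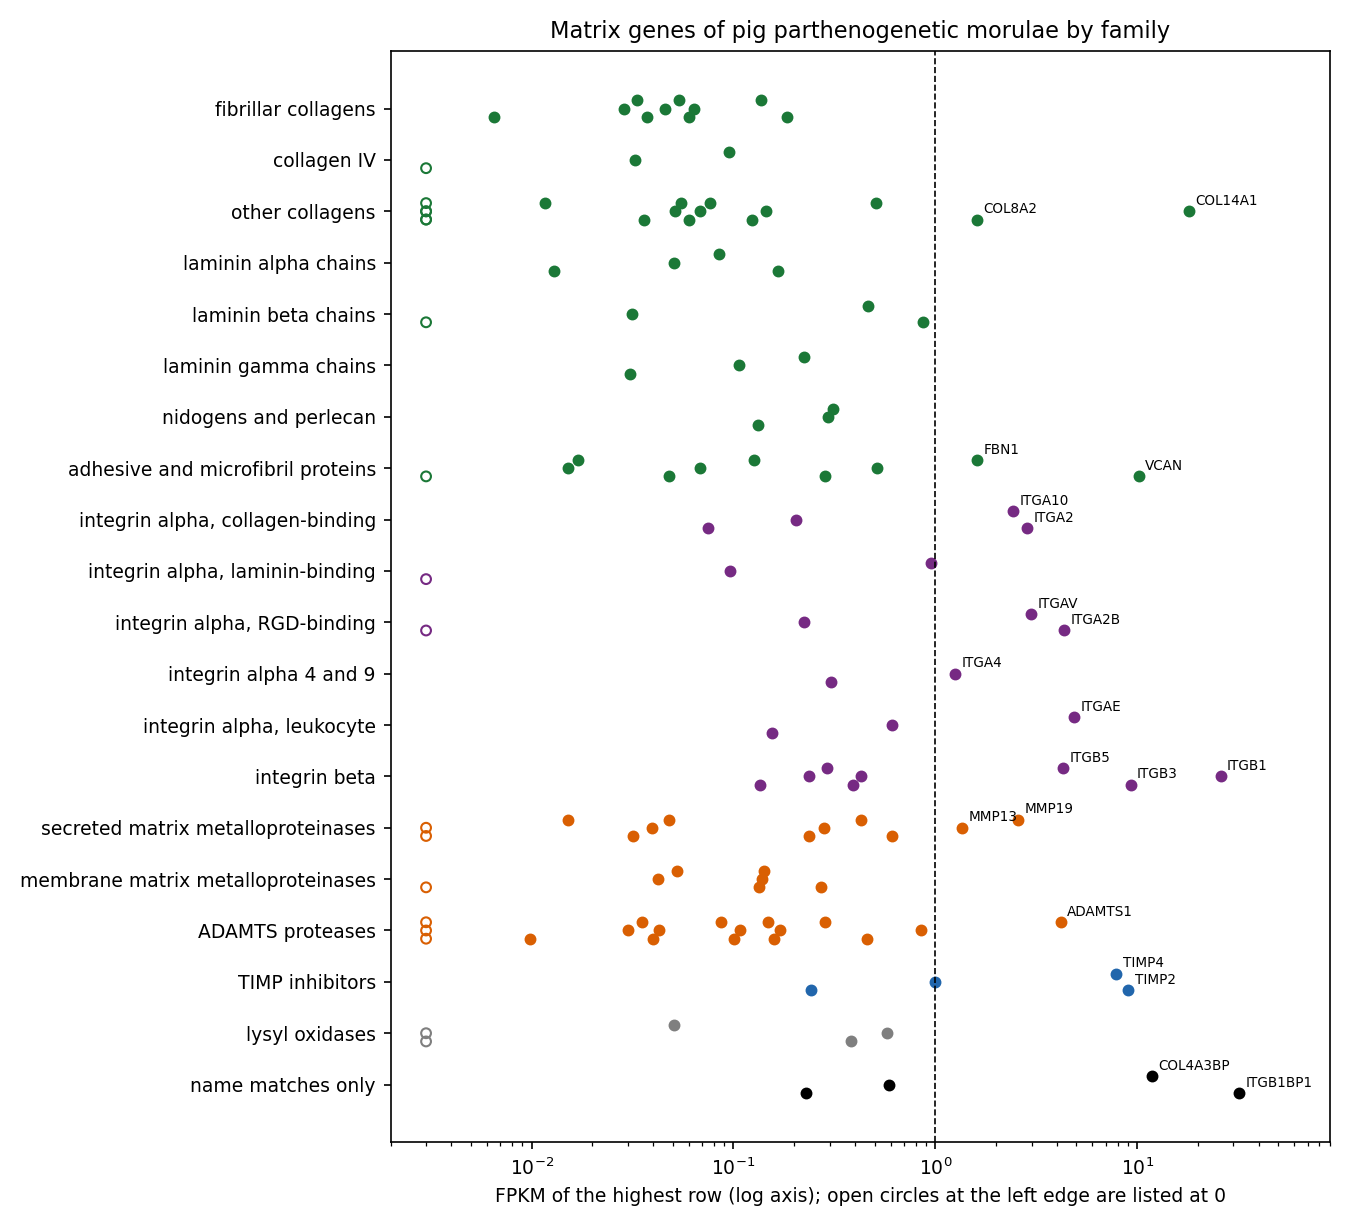
Each point is a gene, placed by the FPKM of its highest row on a log axis and grouped by family, with open circles at the left edge for genes listed at 0 and a dashed line at 1 FPKM. Colours mark matrix proteins (green), integrins (purple), proteases (orange), TIMP inhibitors (blue), lysyl oxidases (grey) and the 4 genes that only match by name (black). The 20 named points to the right of the line lie in 11 families or groups, and no laminin, fibrillar collagen, collagen IV or nidogen gene is among them.

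Among the collagens, 2 of 30 measured genes stood at 1 FPKM or more (6.67%), against 48.8% of all gene names. COL14A1, a collagen that sits on the surface of fibrils, was the highest matrix protein gene at 18.1 FPKM. COL8A2, a network-forming collagen of specialised basement membranes, stood at 1.61 FPKM, so COL14A1 exceeded it 11.2-fold. With rows summed, COL14A1 alone held 87.3% of the FPKM of all measured collagens.

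The fibrillar collagens, whose fibrils COL14A1 decorates in connective tissue, were all low. The 10 measured genes lay between 0.00654 FPKM (COL5A1) and 0.183 FPKM (COL11A1), with a median of 0.0497 FPKM. COL27A1 stood at 0.137 FPKM and COL5A2 at 0.0640 FPKM. COL1A1 and COL1A2, the chains of the main collagen of skin and bone, stood at 0.0332 and 0.0535 FPKM, and COL3A1 at 0.0374 FPKM. The remaining chains lay in the same range: COL2A1 of cartilage stood at 0.0600 FPKM, COL11A2 at 0.0459 FPKM and COL5A3 at 0.0287 FPKM.

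Of the other collagens, COL17A1, a membrane collagen of epithelial anchoring junctions, was the highest below the threshold at 0.510 FPKM. COL12A1, of the same fibril-surface class as COL14A1, stood at 0.144 FPKM and COL28A1 at 0.124 FPKM. COL16A1, COL26A1, COL6A2, COL6A5 and COL6A6 were listed at 0. COL6A2 lies in the run of zeros that ends the table and is counted here among the genes listed at 0. Whether that 0 is a measured level was not tested. The other 7 genes of this group lay between 0.0117 FPKM (COL10A1) and 0.0769 FPKM (COL8A1). Among them COL15A1 stood at 0.0602 FPKM and COL18A1 at 0.0361 FPKM, both collagens of basement membrane zones.

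The 19 measured genes of collagen IV, laminins, nidogens, perlecan, COL15A1 and COL18A1, here the basement membrane set, were all below 1 FPKM. The collagen IV gene COL4A2 stood at 0.0947 FPKM and COL4A5 at 0.0326 FPKM, COL4A4 was listed at 0, and the other chains of collagen IV, COL4A1 among them, were not analysed here. Of 11 laminin chain genes 0 reached 1 FPKM, against 48.8% of all gene names. The alpha chains, which carry most of the integrin-binding part of a laminin, were LAMA4 at 0.166 FPKM, LAMA3 at 0.0849 FPKM, LAMA1 at 0.0507 FPKM and LAMA5 at 0.0128 FPKM.

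The highest laminin chains were beta chains. LAMB4, a beta chain gene with little known function, stood at 0.871 FPKM, and its 3 rows summed to 1.15 FPKM. LAMB1, the widespread beta chain, stood at 0.466 FPKM, LAMB3 at 0.0315 FPKM, and all 7 rows of LAMB2 were listed at 0. The gamma chain LAMC1, shared by most laminins, stood at 0.224 FPKM and LAMC3 at 0.0308 FPKM. A laminin is a trimer of alpha, beta and gamma chains, and 7 known trimers had all their chains in the table. The scarcest chain was highest in the trimer of LAMA4, LAMB1 and LAMC1, where it was LAMA4. In the trimers of LAMA1 or LAMA5 with LAMB1 and LAMC1 the alpha chain was the scarcest, at 0.0507 and 0.0128 FPKM.

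The linkers of the laminin and collagen IV sheets were also below 1 FPKM. Perlecan (HSPG2) stood at 0.311 FPKM, and the nidogens NID2 and NID1 at 0.294 and 0.133 FPKM. The median of the 19 genes of the basement membrane set was 0.0849 FPKM and that of the 10 fibrillar collagens 0.0497 FPKM. In either group 0 genes reached 1 FPKM, against 48.8% of all gene names. On the log2(FPKM + 1) scale the medians differed by 0.048, the basement membrane set being higher. Levels this low are compressed on that scale, and the difference was 0.30 with a pseudocount of 0.1.

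The adhesive and microfibril proteins held the second strong matrix transcript. VCAN, which encodes the large proteoglycan versican of loose, hydrated matrix, stood at 10.2 FPKM. FBN1, the main fibrillin of elastic microfibrils, stood at 1.62 FPKM, FBN2 at 0.0169 FPKM and FBN3 at 0.0151 FPKM. Fibronectin (FN1), the classical ligand of RGD-binding integrins, stood at 0.284 FPKM. THBS4 was the highest thrombospondin at 0.517 FPKM, with THBS1 at 0.0682 FPKM, THBS3 at 0.0478 FPKM and THBS2 listed at 0. SPARC, a collagen-binding protein of basement membranes, stood at 0.127 FPKM. Together COL14A1 and VCAN held 81.9% of the summed FPKM of the 54 measured matrix protein genes.

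Of 24 integrin subunit genes 9 (37.5%) reached 1 FPKM, against 48.8% of all genes. Among beta subunits 3 of 8 did. ITGB1, the partner of most alpha subunits, was the highest integrin at 26.0 FPKM and ranked 1719 among all genes. ITGB3 stood at 9.28 FPKM and ITGB5 at 4.30 FPKM, both partners of ITGAV. A gap followed, with ITGB7 at 0.427 FPKM, ITGB4 of epithelial anchoring junctions at 0.389 FPKM, the leukocyte subunit ITGB2 at 0.290 FPKM, ITGB8 at 0.237 FPKM and ITGB6 at 0.135 FPKM. With rows summed, ITGB1 held 61.5% of the FPKM of the beta subunits.

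Among alpha subunits 6 of 16 stood at 1 FPKM or more, against 48.8% of all genes, and no single gene led as ITGB1 did. ITGAE, known from lymphocytes that settle in epithelia, was highest at 4.87 FPKM and ITGA2B, known from platelets, was next at 4.36 FPKM. ITGAV, the widespread RGD-binding subunit, stood at 2.99 FPKM. The collagen-binding subunits ITGA2 and ITGA10 stood at 2.85 and 2.42 FPKM, and ITGA4, a subunit that binds fibronectin and a vascular adhesion molecule, at 1.25 FPKM. ITGAE exceeded ITGA4, the lowest of these 6, 3.89-fold, and ITGB1 exceeded ITGAE 5.34-fold. The medians of the alpha and beta subunits were 0.457 and 0.408 FPKM, a difference of 0.042 on the log2(FPKM + 1) scale that turned to -0.61 between means.

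The laminin-binding alpha subunits were the low class. ITGA6 stood just under the threshold at 0.954 FPKM, ITGA3 at 0.0961 FPKM, and ITGA7 was listed at 0. The fibronectin receptor subunit ITGA5 stood at 0.225 FPKM and ITGA8 was listed at 0, so of the RGD-binding class only ITGA2B and ITGAV passed 1 FPKM. Of the collagen-binding class ITGA11 and ITGA1 stood at 0.205 and 0.0748 FPKM. ITGA9 stood at 0.305 FPKM, and the leukocyte subunits ITGAM and ITGAL at 0.610 and 0.155 FPKM. The 10 rows of ITGAM summed to 1.63 FPKM.

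**Figure D2:**
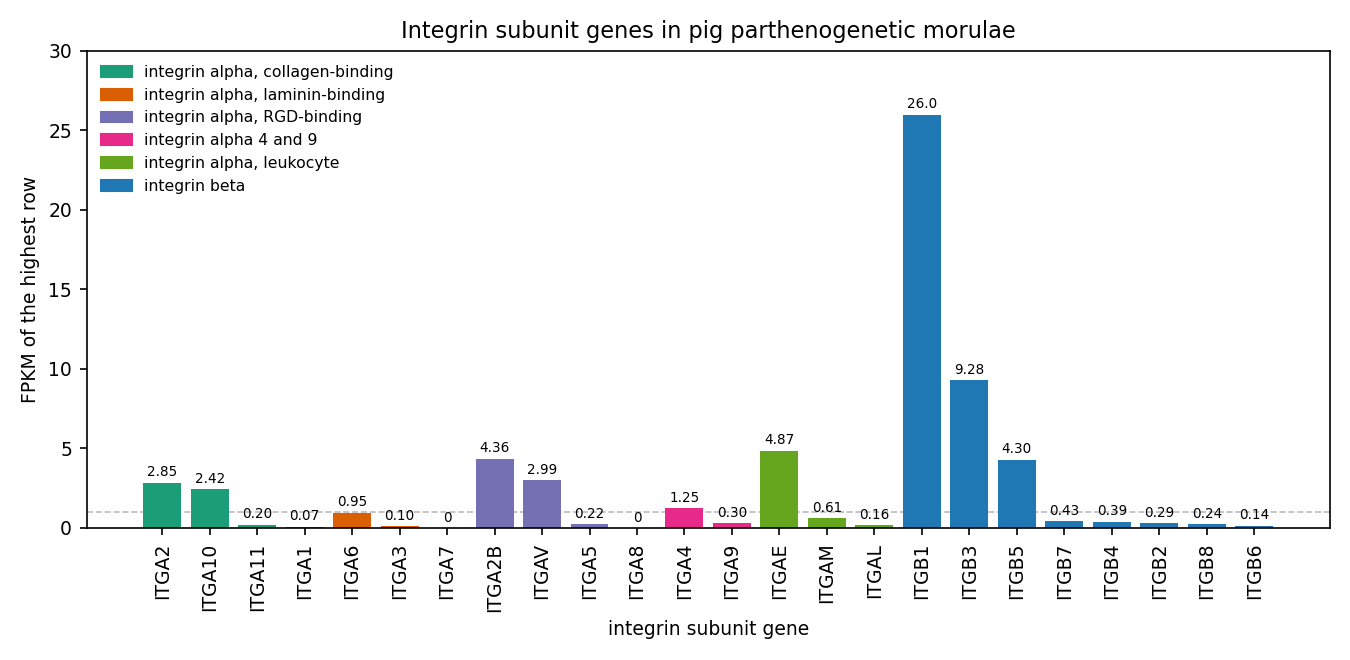
Bars show the FPKM of the highest row of each of the 24 integrin subunit genes, alpha classes first and beta subunits last, with the dashed line at 1 FPKM. ITGB1 at 26.0 FPKM stands above every other subunit, and all 3 laminin-binding alpha subunits lie below the line.

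Integrins reach the surface as alpha and beta pairs, and 22 known pairs had both genes in the table. In 7 of them both subunits stood at 1 FPKM or more. These were ITGA2B with ITGB3, ITGAV with ITGB1, ITGB3 or ITGB5, and ITGB1 with ITGA2, ITGA10 or ITGA4. ITGB3 exceeded ITGA2B 2.13-fold, and ITGB5 exceeded ITGAV 1.44-fold. ITGAE had no partner at its level: its known partner ITGB7 stood at 0.427 FPKM, 11.4-fold lower than ITGAE. The pair of ITGA6 and ITGB4 had both subunits under 1 FPKM. RNA levels do not show which pairs assemble.

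Matrix proteins and integrin receptors differed in how many genes were present at these levels. Of 54 matrix protein genes 4 stood at 1 FPKM or more (7.41%), against 9 of 24 integrin genes (37.5%) and 48.8% of all genes. At 0.1 FPKM the shares were 37.0% and 83.3%, against 71.6% of all genes. At 10 FPKM they were 3.70% and 4.17%, against 20.2% of all genes. The median matrix protein gene stood at 0.0601 FPKM and the median integrin gene at 0.408 FPKM, a difference of medians of -0.41 on the log2(FPKM + 1) scale. The difference was -1.66 with a pseudocount of 0.1 and -0.81 between means. It was -0.96 after scaling to TPM, which multiplies every value by 3.28 and so acts like a smaller pseudocount. Not all 54 genes are well-known integrin ligands. A narrower set held the laminins, FN1, FBN1, THBS1, COL4A2 and chains of collagens I, II and III. Of its 19 measured genes 1 reached 1 FPKM (5.26%), and its difference from the integrins was -0.40. Genes are not replicates, so these figures describe 1 merged table and carry no p-value.

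**Figure D3:**
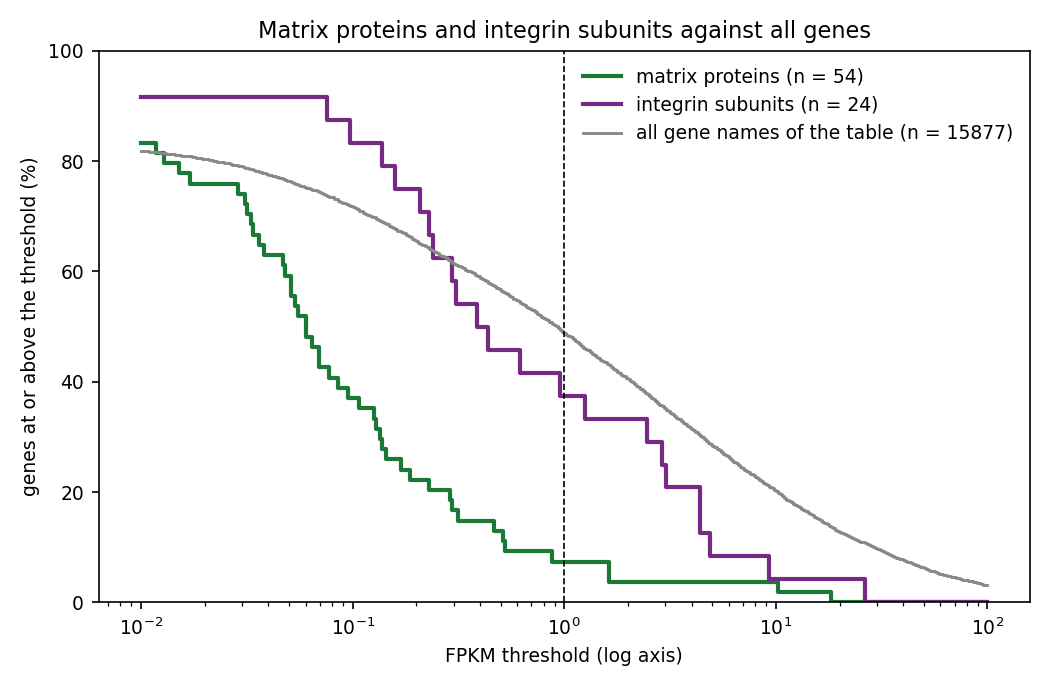
Lines give the percent of genes at or above each FPKM threshold (log axis) for the 54 matrix protein genes, the 24 integrin subunit genes and all 15877 gene names, with a dashed line at 1 FPKM. The matrix protein line lies below the integrin line at every threshold drawn up to the highest integrin gene at 26.0 FPKM. From 10 FPKM on, each rests on 1 or 2 genes.

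Ligands were also set beside the receptor class that binds them. The fibrillar collagens reached 0.183 FPKM at most and the measured collagen IV genes 0.0947 FPKM. Of the 17 other collagens, COL14A1 stood at 18.1 FPKM and COL8A2 at 1.61 FPKM, and 15 lay below 1 FPKM. The collagen-binding subunits ITGA2 and ITGA10 stood at 2.85 and 2.42 FPKM, and ITGA11 and ITGA1 of the same class at 0.205 and 0.0748 FPKM. Which collagens these subunits bind here was not tested. FN1 stood at 0.284 FPKM and FBN1, a fibrillin with an RGD site, at 1.62 FPKM, against 2.99 and 4.36 FPKM for the RGD-binding subunits ITGAV and ITGA2B, 0.225 FPKM for the fibronectin receptor subunit ITGA5 and ITGA8 listed at 0. For laminins the chains and the laminin-binding alpha subunits were below 1 FPKM, while the beta partner ITGB1 stood at 26.0 FPKM. LAMB4 was the highest chain at 0.871 FPKM, or 1.15 FPKM with rows summed. LAMA4 was the highest alpha chain at 0.166 FPKM and ITGA6 the highest laminin-binding alpha subunit at 0.954 FPKM. The pairing of these levels has no baseline from another stage, and RNA of this stage does not show protein laid down earlier.

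Matrix proteases were mostly low, with 3 of 37 at 1 FPKM or more (8.11%), against 48.8% of all gene names. ADAMTS1, a protease that cuts versican, was highest at 4.20 FPKM. MMP19 stood at 2.58 FPKM and the collagenase MMP13 at 1.35 FPKM. The highest secreted MMP genes below the threshold were the stromelysin MMP3 at 0.612 FPKM, MMP28 at 0.428 FPKM and MMP12 at 0.280 FPKM. The gelatinases, which cut denatured collagen and collagen IV, were MMP2 at 0.236 FPKM and MMP9 at 0.0480 FPKM. MMP27, MMP7 and MMP11 lay at or under 0.0395 FPKM, and MMP8 and MMP20 were listed at 0.

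None of 7 membrane MMP genes reached 1 FPKM, against 48.8% of all gene names. MMP14, the membrane protease that activates MMP2, stood at 0.271 FPKM, MMP17 at 0.142 FPKM, MMP24 at 0.139 FPKM, MMP15 at 0.134 FPKM, MMP23B at 0.0528 FPKM and MMP25 at 0.0424 FPKM, and MMP16 was listed at 0. Among the 18 ADAMTS genes, ADAMTS5, which cuts aggrecan and versican, stood at 0.851 FPKM, ADAMTS9 at 0.456 FPKM and ADAMTS12 at 0.285 FPKM. ADAMTS13, ADAMTS14 and ADAMTS16 were listed at 0. The remaining 11 lay between 0.00986 FPKM (ADAMTS4) and 0.170 FPKM (ADAMTS17), with ADAMTS2, which trims the ends of fibrillar procollagen, at 0.107 FPKM. With its single row, ADAMTS1 held 58.7% of the summed FPKM of the family.

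Among the TIMP inhibitors 2 of 4 stood above every protease. TIMP2, which blocks MMPs and also helps MMP14 to activate MMP2, stood at 9.04 FPKM. TIMP4 stood at 7.89 FPKM and its 2 rows summed to 12.6 FPKM. TIMP3, the inhibitor that binds to the matrix and also blocks ADAMTS proteases, stood at 0.998 FPKM, and TIMP1 at 0.242 FPKM, 37.3-fold lower than TIMP2. The median protease gene stood at 0.101 FPKM and the median of the 4 TIMP genes at 4.45 FPKM, a difference of -1.94 on the log2(FPKM + 1) scale. The median of 4 genes rests on the gap between TIMP4 and TIMP3. The 37 protease genes include 18 ADAMTS genes, and which of them TIMP2 or TIMP4 blocks was not tested. No protease gene reached the level of TIMP2 or TIMP4, and TIMP2 exceeded MMP19, the highest MMP, 3.51-fold.

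All 5 lysyl oxidase genes lay below 1 FPKM, while 48.8% of all gene names stood at 1 FPKM or more. LOXL1 stood at 0.574 FPKM, LOX at 0.384 FPKM and LOXL4 at 0.0505 FPKM, and LOXL2 and LOXL3 were listed at 0. The genes that match by name only were not low as a group: ITGB1BP1 stood at 32.1 FPKM, above ITGB1, COL4A3BP at 11.9 FPKM, ITGB1BP2 at 0.590 FPKM and ITGBL1 at 0.229 FPKM. Without these 4 names 18 of 124 genes (14.5%) stood at 1 FPKM or more.

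Several matrix genes had their summed FPKM spread over more than 1 transcript row. The 128 members have 305 rows, and 75 members have several, 65 of them with a row above 0. In 40 of these 65 the highest row held at least 90% of the gene's summed FPKM. ITGB1 was of this kind, with 97.8% in its highest row of 4. VCAN was not: its highest row stood at 10.2 FPKM and its second at 7.59 FPKM, and its 9 rows summed to 19.1 FPKM, above TIMP4 and below COL14A1.

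COL14A1 had rows at 18.1, 4.89 and 1.58 FPKM and a sum of 24.6 FPKM. ITGAE had rows at 4.87, 1.84 and 1.41 FPKM and a sum of 8.85 FPKM over 10 rows. ITGA2B had rows at 4.36 and 2.72 FPKM and a sum of 7.36 FPKM. ITGB3, TIMP2, ADAMTS1, ITGA2, FBN1, COL8A2 and MMP13 have 1 row each. With summed rows LAMB4 and ITGAM crossed 1 FPKM, and 22 members stood at the threshold, against 50.6% of all genes. Transcript rows of a gene share reads, and how the authors' software split them was not tested.

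**Figure D4:**
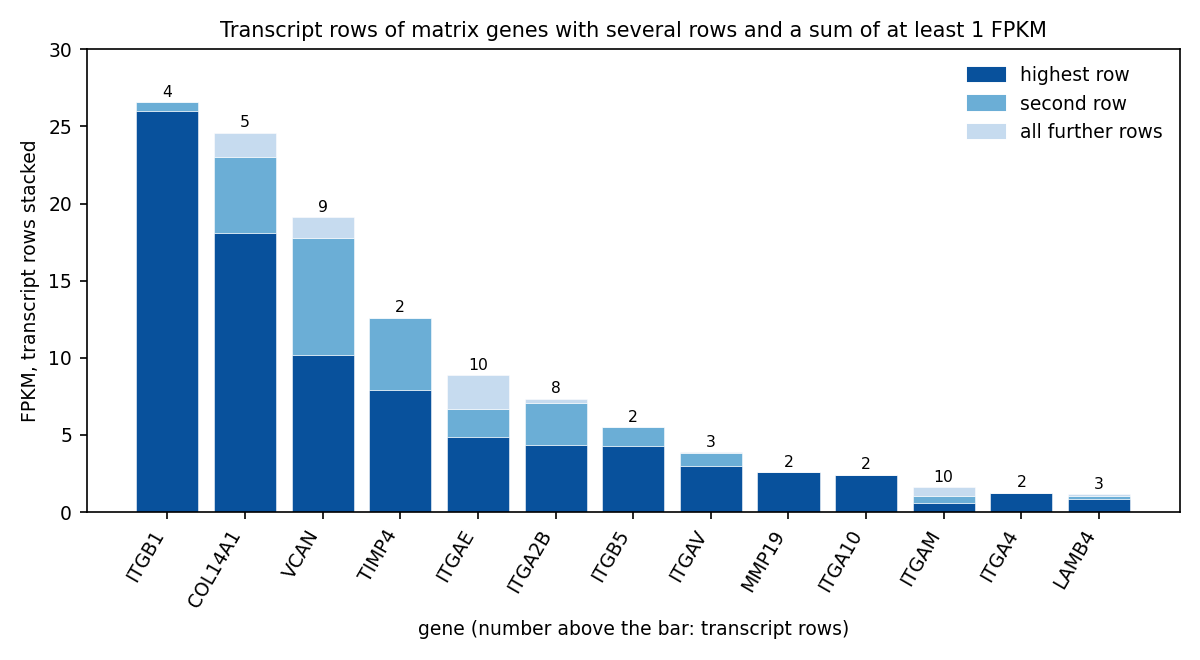
Stacked bars give the FPKM of the highest, the second and all further transcript rows for the 13 family members with several rows that sum to at least 1 FPKM, with the number of rows above each bar. The highest row holds 53.1% of the sum of VCAN, 37.4% of that of ITGAM and 97.8% of that of ITGB1.

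Genes that process collagen and those that link integrins to the cell interior stood near the 48.8% of all gene names. Of 23 genes of collagen modification and secretion 13 stood at 1 FPKM or more (56.5%). The highest were the isomerase gene PPIB at 46.6 FPKM, P4HB at 22.2 FPKM and the lysyl hydroxylase gene PLOD1 at 7.38 FPKM, followed by PCOLCE2 at 5.91 FPKM. PPIB and P4HB also serve the folding of many other secreted proteins. SERPINH1, the chaperone most dedicated to collagen, stood at 0.159 FPKM, BMP1, which trims procollagen, was listed at 0, and the highest genes under 1 FPKM were COLGALT2 at 0.754 FPKM, P3H2 at 0.425 FPKM and TLL1 at 0.355 FPKM.

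Of 23 measured integrin adhesion adaptors 13 stood at 1 FPKM or more (56.5%), again near the 48.8% of all genes. The kinase-like scaffold gene ILK stood at 6.98 FPKM, the actin cross-linker ACTN1 at 5.70 FPKM, PARVA, a partner of ILK, at 5.59 FPKM and the kinase gene PTK2B at 3.69 FPKM. Just under the threshold were TNS3 at 0.728 FPKM, vinculin (VCL) at 0.605 FPKM and FERMT3 at 0.558 FPKM. Of 14 non-integrin matrix receptors 8 did (57.1%), among them CD47 at 5.35 FPKM and the syndecans SDC4 and SDC2 at 5.22 and 3.18 FPKM. RPSA, at 668 FPKM, is counted there as a laminin receptor but is foremost a ribosomal protein gene. GPC4 at 0.974 FPKM, CD44 at 0.278 FPKM and DDR1 at 0.0893 FPKM were the highest below 1 FPKM.

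Other basement membrane genes were also rare at this level, with 1 of 14 at 1 FPKM or more (7.14%) and a median of 0.0360 FPKM. EGFLAM, a ligand of dystroglycan, stood at 1.94 FPKM, NTN1 at 0.312 FPKM and FREM2 at 0.159 FPKM. Among 17 genes of protease activation and serpins 7 did (41.2%), with the protease inhibitor gene SERPINE2 at 13.0 FPKM, the membrane sheddase genes ADAM17 and ADAM10 at 4.47 and 4.30 FPKM, and ADAM9 at 3.43 FPKM. Below the threshold were ADAM28 at 0.560 FPKM, PCSK5 at 0.418 FPKM and FURIN, which activates membrane MMPs, at 0.127 FPKM. As a comparison of adhesion systems, 20 of 128 matrix members (15.6%) and 15 of 57 cadherin, claudin and connexin genes (26.3%) stood at 1 FPKM or more, and 48.8% of all genes did. The order was the other way for the medians, at 0.130 FPKM for the matrix members and 0.0841 FPKM for the cadherin, claudin and connexin genes, of which 18 and 16 were listed at 0. Neither list was tested against the other.

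**Figure D5:**
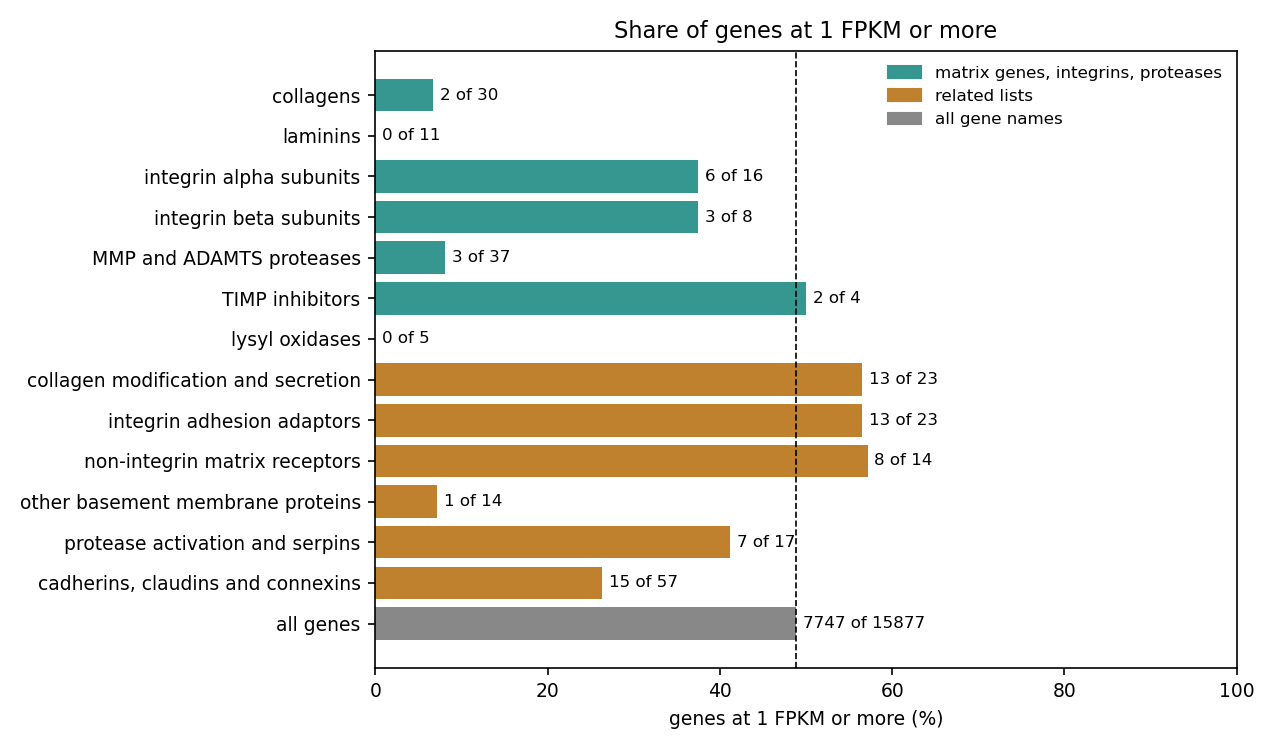
Bars give the percent of measured genes at 1 FPKM or more for the matrix gene groups (teal), the related lists (brown) and all gene names (grey), with the counts beside each bar and a dashed line at the 48.8% of all genes. Collagens, laminins, proteases, lysyl oxidases and other basement membrane proteins lie at 8.11% or less, and both integrin groups lie at 37.5%.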

How the data were processed

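The RNA of 4 pig morula libraries was prepared with Smart-seq2, per the labels' protocols. The deposited table gives FPKM values that the authors computed, per the file headers, in 37571 transcript rows with 1 column in which the 4 libraries are merged. Per the submitters' processing notes, the tools of the whole series include Cufflinks 2.2.1, TopHat2 2.1.1, Trim Galore 0.6.4, Bowtie2 2.2.5 and 2.1.0, cutadapt 1.11, CASAVA 1.8 and Bismark 0.7.0, with the builds susScr11, bosTau8 and rn6. The step each of them had in this table was not given in the sources used.

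The depth is unknown: 4534 rows lay above 0 and under 1e-06 FPKM, so no whole reads could be recovered. FPKM depends on the transcript lengths used, and a wrong length shifts a gene's level. The table ends in 474 rows at 0, with 215 gene names that have no other row, 1 of them a member, and 0 is given as listed at 0. The level of a gene is the FPKM of its highest row, and it was called at 1 FPKM or more. Differences between lists are differences of medians of log2(FPKM + 1). The computation was tested on simulated lists, and ran in Python 3.11.15 with pandas 2.3.3 and numpy 2.4.6.

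Named genes are all members at 1 FPKM or more, all integrins, laminins, collagen IV, nidogen, TIMP, lysyl oxidase and membrane MMP genes, the 3 highest others under 1 FPKM in each family, the 4 highest and up to 3 highest under 1 FPKM of each related list, and the 3 highest of each marker list. Some genes that this rule takes are left out of the text. Genes named beyond that were chosen after their values were seen. The members and lists were chosen with earlier results of these data known. Of 147 family names listed, 23 were not analysed here. Sequence features planned for the members were not run, since no pig sequences were used here.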

Additional observations from a re-analysis of the deposited data

How the results depend on the processing

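No paired analysis was possible because the authors merged the 4 libraries in 1 column, and for the same reason no library could be left out. Scaling to TPM multiplied every FPKM by 3.28, so it acts like a lower threshold or a smaller pseudocount. Scaled to TPM, 37 members stood at 1 or more (28.9%, against 61.3% of all genes), matrix proteins and integrins differed by -0.96, basement membrane genes and fibrillar collagens by 0.14, proteases and TIMP genes by -3.01 and integrin alpha and beta subunits by 0.068. At 5 FPKM 8 members remained at the threshold (6.25%, against 28.4%). With a pseudocount of 0.1 the 4 differences were -1.66, 0.30, -3.88 and 0.079. Between means the first was -0.81 and the second 0.10, and alpha against beta subunits turned from 0.042 to -0.61; the cause was not tested. With genes under 0.1 FPKM left out, the 20 members at 1 FPKM were 29.0% of 69, against 68.1% of all genes, the second difference was 0.12 and alpha against beta 0.58. With summed rows alpha against beta was 0.12. In the other 18 alternatives the count or difference stayed within 1.5 times of the main one, but some of these could not move. The filter at 0.1 FPKM cannot change the count of members. Leaving out the run of zeros removes 1 member, COL6A2 listed at 0, so it cannot change that count either. COL6A2 is only in the matrix protein list, so the differences between the other lists could not change. None of the 4 differences apart from alpha against beta turned its sign. With unknown depth and no replicates, levels under 1 FPKM have no known error.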
